A study of Homo sapiens with 3 samples.

Results

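The ubiquitin-specific proteases are the largest family of enzymes that remove ubiquitin from proteins, and the genes named USP followed by a number were examined here in HCT116 cells after knockdown of PRMT1. Of the 41749 gene names on the array, 51 were taken by this naming rule, and each gene was represented by its brightest probe. A probe well above background on at least 1 array was found for 42 of them, and for 40 it was well above background on all arrays. The family was chosen by the changes of USP25 in KD1 and KD2 measured on these arrays, since by mean change over both knockdowns it was, of all symbol-bearing genes detected on every array, the lowest after the targeted gene. The change of USP25 is therefore described without support being drawn from it.

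HCT116 is an established human colorectal carcinoma line, and PRMT1 is the main enzyme that places asymmetric dimethyl marks on arginine residues, among them arginine 3 of histone H4. The groups were control cells (PRMT1-NC, here NC) and cells with either of 2 knockdowns of PRMT1 by siRNA (PRMT1-KD1, here KD1, and PRMT1-KD2, here KD2). RNA from each was hybridised to 1 array, so no group had a replicate and no difference below carries a p-value. All groups shared the parental line, its serum-containing medium and a lipid-based transfection. The NC array served for both knockdowns, so an error on that array enters both comparisons. Loss of the transcript in all cells and loss of a subset of cells cannot be told apart in such bulk RNA. The siRNAs are shown because they define the knockdowns. The labels do not tie either sequence to KD1 or KD2.
PRMT1 siRNA-1: cugaaguccaggucgauggugaaguc
PRMT1 siRNA-2: uuguagucuuuguacugcc

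Ubiquitin is a small protein that is joined to other proteins by a cascade of activating, conjugating and ligating enzymes. Chains of ubiquitin send many proteins to the proteasome, whereas single ubiquitins on histones and receptors act as signals. Ubiquitin-specific proteases are cysteine proteases that cut ubiquitin off again, and members differ mainly in where they act and which partner proteins they bind. USP25 and its close paralog USP28 are held to stabilise regulators such as tankyrases, TRAF adaptors and MYC.

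Values are log2 processed intensities relative to each array's 75th percentile, so 0 marks a probe as bright as that percentile (intensities of 117, 153 and 125 on NC, KD1 and KD2). A change is the knockdown value minus the NC value. A gene was counted as higher or lower when its change passed 1.5-fold, which is 0.58 on the log2 scale. The extraction software's own error was about 10% for a spot of a family member, and it put the error of most changes at 0.20 to 0.21. The robust SD of KD1 minus KD2 was 0.38 among 17054 genes measured above background on every array. PRMT1 itself, the check of the labels, had 10.4% of its NC signal in KD1 and 4.24% in KD2. The line was checked against markers. All 5 epithelial markers and 2 of 4 intestinal markers (CDX1 and CDX2) were above background on all arrays, whereas VIL1 was above background on none and LGALS4 was above it in the knockdowns only. Of the markers of other cell types, COL1A1 among 4 of fibroblasts, CD14 among 4 of blood, and VWF and CDH5 among 3 of endothelium were above background on all arrays. Summed intensities, not scaled between arrays, were 343, 540 and 556 on NC, KD1 and KD2 for the fibroblast list and 97.8, 139 and 158 for the blood list. For the endothelial list they were 72.4, 163 and 96.7, and for the epithelial list 549671, 543930 and 472590. The 75th percentile of intensity was itself higher on KD1 (153) and KD2 (125) than on NC (117), so part of these differences lies in the brightness of the arrays. PTPRC, of the blood list, was above background on KD2 alone, and COL1A2, DCN, LUM, CD3E and PECAM1 were above it on no array. The part of these levels in the results below was not tested.

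USP25 encodes a cysteine protease known in immune and WNT signalling. It was measured by 1 probe (A_24_P139208, designed on transcript NM_013396), placed in hg19 at chromosome 21, 17251556 to 17251615, on the plus strand, and beginning at base 4298 of that transcript. On NC, KD1 and KD2 its signal was 0.05, −1.76 and −2.72, from background-corrected intensities of 121, 45.2 and 19.1. All were above background, but the KD2 signal lay just above the dimmest probe so called on that array, at −2.85. The change was −1.81 with an error of 0.25 in KD1 and −2.77 with an error of 0.35 in KD2. This left 28.5% and 14.7% of the NC signal. The spread between KD1 and KD2 for genes of like brightness was 0.45. In the order of all changes from the lowest, USP25 took place 125 of 19231 genes in KD1 and 18 of 19421 in KD2. Among the 42 proteases it stood 39th by signal, and no other probe of the gene was on the array, so the value rests on 1 dim spot per array. With normexp background correction, which draws dim signals together, the changes were −1.02 and −1.19, still past the fold in both knockdowns. In KD1 the change was −1.20 with spike-in scaling and −1.42 without scaling between arrays, as in the deposited matrix.

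The paralog USP28, which protects MYC and acts at DNA breaks, gave an uncertain value in KD1 and only a bound in KD2. On NC, KD1 and KD2 its signal was −2.62, −2.87 and −3.31, and it was above background on NC alone. It read 1.19-fold lower in KD1, where its own signal was used, with an error of 0.46. In KD2, where the dimmest signal called above background was used, it was at least 1.17-fold lower. Both values lay inside the fold. These arrays therefore do not settle whether USP28 followed USP25.

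The promoter of USP25 is printed because the gene has the lowest changes of the family in both knockdowns. It covers 250 bases before and 50 bases after the transcription start in RefSeq (GRCh38.p14, chr21:15729732-15730031, plus strand), and the capitals mark GC boxes, the letters GGGCGG on either strand.
USP25: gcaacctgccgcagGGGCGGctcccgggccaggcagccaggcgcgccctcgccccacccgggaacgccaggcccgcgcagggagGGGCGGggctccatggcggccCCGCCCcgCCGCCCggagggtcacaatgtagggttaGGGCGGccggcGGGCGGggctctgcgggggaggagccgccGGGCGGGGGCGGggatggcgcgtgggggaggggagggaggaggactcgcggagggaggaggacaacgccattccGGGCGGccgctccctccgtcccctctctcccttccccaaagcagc

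This window held 9 GC boxes and no match to the other motifs searched, which were the CCAAT box (CCAAT), an ETS core (CCGGAAG), the cyclic AMP response element (TGACGTCA), an E-box (CACGTG) and the TATA box (TATAAA).

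Across the family, changes ran in both directions and were mostly small. The median change was 0.02 in KD1 and 0.07 in KD2, beside −0.04 and −0.05 over all genes. In KD1, 10 of 42 proteases (23.8%) were higher past 1.5-fold and 3 (7.14%) were lower, against 13.2% higher and 12.8% lower among all genes tested. Together these were 13 members (31.0%), against 26.1% of all genes. In KD2, 5 (11.9%) were higher and 5 (11.9%) lower, against 9.56% and 10.7% of all genes, and together 10 members (23.8%), against 20.2%. In KD1 the share of higher members was thus above that of all genes and the share of lower members below it, and a later paragraph sets these counts beside the position of the probes. Whether the shares differ from those of all genes was not tested. The threshold ran through a group of like values. In KD1, USP27X at 0.589 was just inside and USP38 at 0.575 just outside, and USP13 missed the lower side at −0.584.

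**Figure D1:**
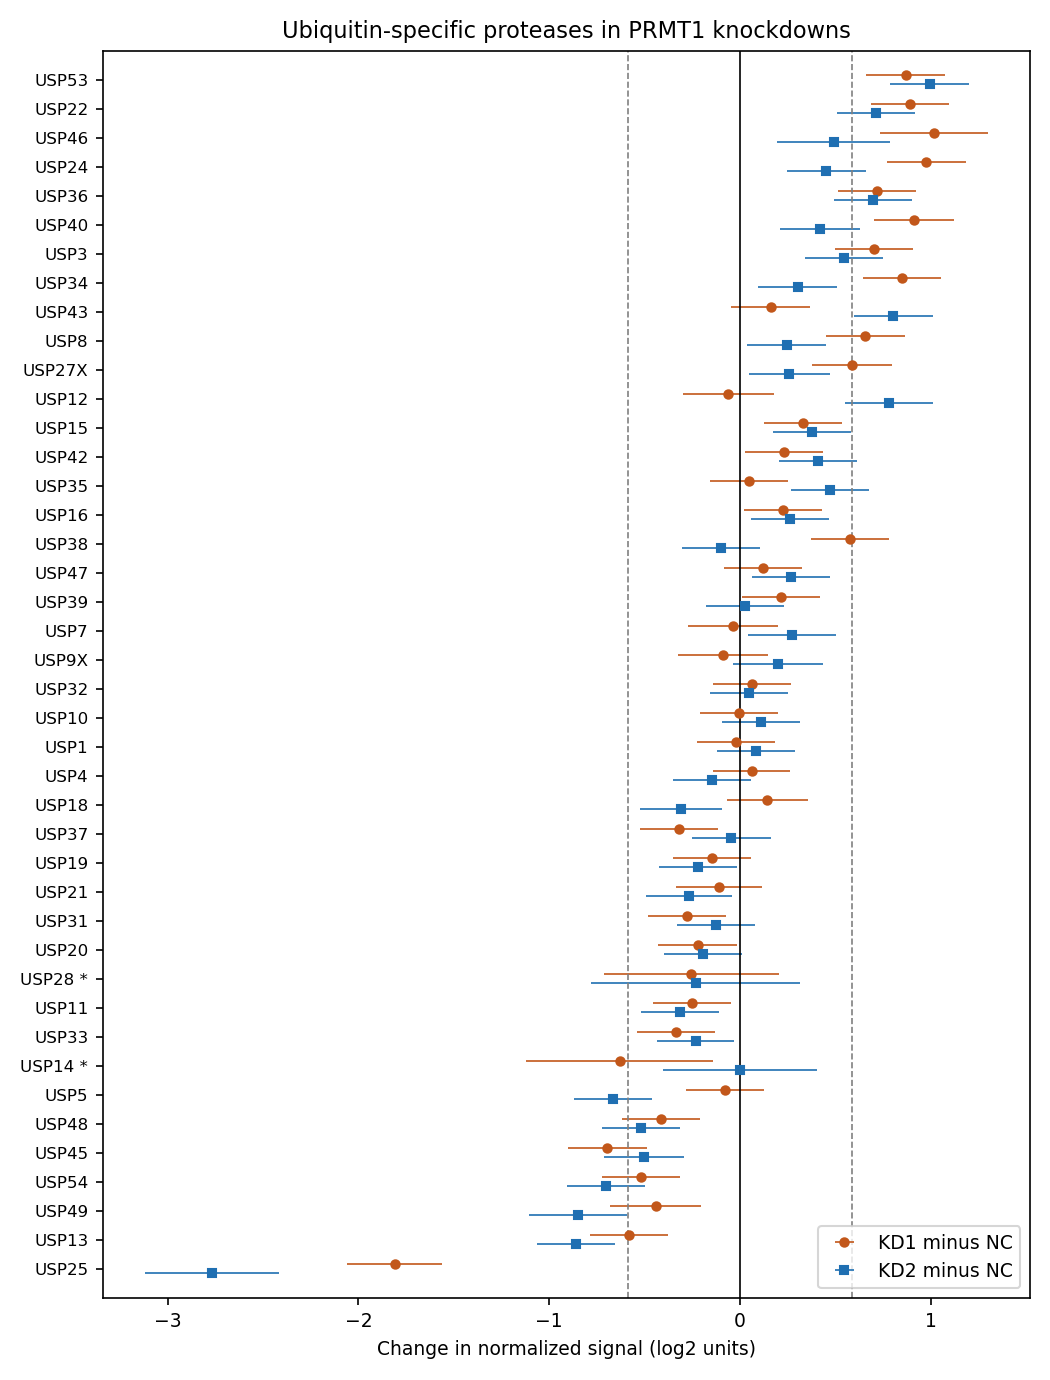
Change in normalized signal (log2 units) of the 42 measured ubiquitin-specific proteases, KD1 minus NC as circles and KD2 minus NC as squares, ordered by their mean; bars are the extraction software's error of the change, dashed lines mark 1.5-fold, and an asterisk marks a gene not above background on all arrays. USP25, chosen for its low changes, lies at −1.81 and −2.77, and the changes of the other members lie between −0.86 and 1.02.

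At the brightest probe of each gene, USP25 was lower past the fold in both comparisons, and USP22, USP36 and USP53 were higher. These were 1 and 3 of 42 members (2.38% and 7.14%), against 5.36% and 5.00% of all genes. Since both comparisons use the NC array, this count only selects the members to describe. With median scaling, USP22 (0.57) and USP36 (0.55) dropped under the fold in KD2, and USP53 alone stayed past it in both. No member was past the fold in opposite directions, which held for 0.231% of all genes.

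**Figure D2:**
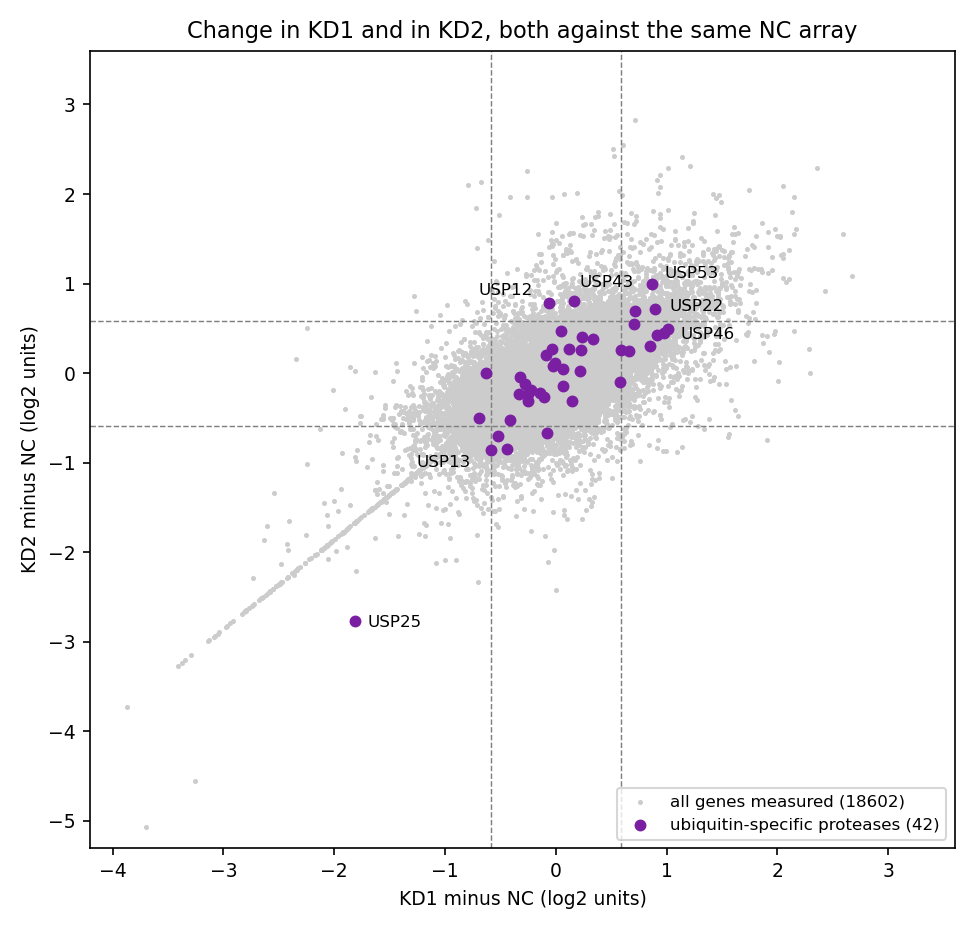
KD1 minus NC (horizontal) against KD2 minus NC (vertical), in log2 units, for the 42 proteases (purple) over the 18602 genes measured in both comparisons (grey); dashed lines mark 1.5-fold. USP25, chosen for its low changes, lies at −1.81 and −2.77, and the other proteases lie within the cloud of all genes. The grey diagonal is made of genes above background on NC alone, whose values in the knockdowns are bounds.

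The proteases of chromatin and transcription included USP22 and USP36. Of the 10 measured among 12 listed, 4 were higher in KD1 and none was lower, beside 13.2% and 12.8% of all genes, and in KD2 2 were higher and 1 was lower, beside 9.56% and 10.7%. Their median change was 0.23 in KD1 and 0.27 in KD2, beside −0.04 and −0.05 over all genes. These shares and medians of all genes are the background for each gene group below, and the groups are too small for their counts to be read as particular to them. USP22, the deubiquitinase of the SAGA coactivator that takes ubiquitin off histone H2B, had signals of 2.38, 3.27 and 3.09 on NC, KD1 and KD2. It was 1.85-fold higher in KD1 and 1.64-fold higher in KD2. USP36, a nucleolar protease of ribosome production that also protects MYC, had 5.66, 6.38 and 6.35, which was 1.64-fold and 1.62-fold higher. For both genes the KD1 and KD2 arrays differed by less than the errors of the changes, and both lay above NC. USP3, which takes ubiquitin off histone H2A, had 1.87, 2.58 and 2.42, past the fold in KD1 (0.70) and under it in KD2 (0.54). Its second probe, at 1.51, 2.87 and 2.30, gave 1.36 and 0.79, past the fold in both. With normexp, quantile or spike-in scaling, USP3 was also past the fold in both knockdowns. USP27X, a relative of USP22 that can replace it on histone H2B, had 0.07, 0.66 and 0.33 with changes of 0.59 and 0.26. Its other probe gave changes of 0.07 in KD1 and 0.23 in KD2. The KD1 change of USP27X passed the fold in 5 of 11 alternatives. Against these, USP49, another protease of histone H2B, had −0.88, −1.32 and −1.73 and was lower past the fold in KD2 (−0.85) and not in KD1 (−0.44). The remaining measured members were within the fold in both knockdowns. They were USP7, the protease of MDM2 and p53, at −0.04 and 0.27, USP16 and USP21, which act on histone H2A, at 0.23 and 0.26 and at −0.11 and −0.27, USP42, which acts on p53, at 0.23 and 0.41, and USP11 at −0.25 and −0.31. USP44 and USP51 were above background on no array.

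The promoters of USP22 and USP36 are printed with that of USP53 because these genes were higher past the fold in both knockdowns. Each is a RefSeq window of the same 300 bases around the start in GRCh38.p14, on the minus strand at chr17:21042962-21043261 for USP22 and chr17:78840765-78841064 for USP36, and on the plus strand at chr4:119212463-119212762 for USP53. Capitals mark GC boxes and, once each, the E-box CACGTG in USP36 and the CCAAT box, read as ATTGG, in USP53.
USP22: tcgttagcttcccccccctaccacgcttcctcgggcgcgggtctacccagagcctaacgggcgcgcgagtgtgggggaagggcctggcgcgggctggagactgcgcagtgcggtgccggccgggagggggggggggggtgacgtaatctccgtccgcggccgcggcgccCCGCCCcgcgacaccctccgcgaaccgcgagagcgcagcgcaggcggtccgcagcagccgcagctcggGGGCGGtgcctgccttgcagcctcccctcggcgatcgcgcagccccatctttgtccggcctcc
USP36: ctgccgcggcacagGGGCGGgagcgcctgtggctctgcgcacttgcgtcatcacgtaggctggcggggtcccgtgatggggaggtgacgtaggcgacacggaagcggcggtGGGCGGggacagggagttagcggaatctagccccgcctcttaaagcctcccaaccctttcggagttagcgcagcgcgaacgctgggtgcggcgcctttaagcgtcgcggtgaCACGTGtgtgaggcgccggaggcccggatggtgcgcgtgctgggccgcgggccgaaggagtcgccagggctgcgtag
USP53: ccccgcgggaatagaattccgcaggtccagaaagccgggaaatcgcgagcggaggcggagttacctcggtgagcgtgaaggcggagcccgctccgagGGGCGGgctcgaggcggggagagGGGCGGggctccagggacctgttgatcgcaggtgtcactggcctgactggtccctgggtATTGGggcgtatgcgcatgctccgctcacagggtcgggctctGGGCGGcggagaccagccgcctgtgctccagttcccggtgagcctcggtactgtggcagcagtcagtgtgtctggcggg

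GC boxes numbered 2 in USP22, 2 in USP36 and 3 in USP53. A promoter was listed for 34 of the 42 measured members, and no window was matched here for USP18, USP24, USP31, USP37, USP42, USP43, USP48 and USP9X. At least 1 GC box was found in 29 of the 34 (85.3%), against 44.6% of all 27305 promoters of this length, and the ETS core in 10 (29.4%), against 10.7%. The CCAAT box was found in 9 (26.5% against 35.7%), the E-box in 3 (8.82% against 7.43%) and the TATA box in 2 (5.88% against 12%). The cyclic AMP response element was found in 0 of the 34, against 1.98% of all promoters. The median GC content of the family's windows was 70.0%, against 58.3%. The members' windows are those of genes detected here, whereas the set of all promoters also holds genes that were not. The differences can therefore not be read as particular to the family. All motifs were searched on both strands, and no motif is contained in another. USP22, USP36 and USP53, higher in both knockdowns, and USP25, lower in both, all had GC boxes, as most of the family did.

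The proteases that recycle ubiquitin or sit on the proteasome were USP5, USP13 and USP14. Their median change was −0.58 in KD1 and −0.66 in KD2, with 1 of 3 lower past the fold in KD1, 2 of 3 lower in KD2 and none higher, beside 12.8% and 10.7% of all genes lower. USP5, which takes apart free ubiquitin chains, had signals of 2.45 on NC, 2.36 on KD1 and 1.78 on KD2. It was 1.58-fold lower in KD2 only (−0.66, against −0.08 in KD1). Its paralog USP13 had 2.37, 1.79 and 1.51, with changes of −0.58 in KD1, a hair inside the fold, and −0.86 in KD2. In KD1 the USP13 change turned to 0.03 under spike-in scaling, which raised the values of all genes. USP14, which trims ubiquitin from substrates on the proteasome, had −2.20, −2.83 and −2.20 and was not above background on KD1. It read 1.55-fold lower in KD1, an uncertain value with an error of 0.49, and was −0.001 from NC in KD2. The 3 genes differed in which array was low, KD2 for USP5, both knockdowns for USP13 and KD1 for USP14.

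Among the proteases of DNA repair and those that bind the WD40 protein WDR48, 1 of 7 was higher in KD1, another 1 of 7 was higher in KD2, and none was lower. The medians were −0.06 and 0.08. USP12 and USP46, close paralogs that bind WDR48, differed in which array was high. USP46 had −2.02, −1.0 and −1.53 on NC, KD1 and KD2, with changes of 1.02 in KD1 (error 0.28) and 0.49 in KD2. USP12 had −1.10, −1.16 and −0.32, with changes of −0.06 in KD1 and 0.78 in KD2 (error 0.23). The probes for both were dim, and the USP46 change was 0.36 in KD1 under normexp correction. USP1, the third partner of WDR48, which acts on FANCD2 and PCNA, was at −0.02 and 0.08. USP48, which acts on histone H2A at DNA breaks, was at −0.41 and −0.52, USP37, a protease of the cell cycle, at −0.32 and −0.04, and USP47, which acts on DNA polymerase beta, at 0.12 and 0.27.

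Proteases of the endosome, Golgi, endoplasmic reticulum and stress granules held near the NC level at their brightest probes, apart from USP8. Of the 6 measured among 8 listed, 1 was higher in KD1 and none in KD2, and none was lower, with medians of −0.08 and −0.07. USP8, which spares receptors such as EGFR from the lysosome, had 0.59, 1.25 and 0.83 and changes of 0.66 in KD1 and 0.25 in KD2. USP10, a partner of the stress granule protein G3BP1, had 5.72, 5.72 and 5.83. USP19, anchored in the endoplasmic reticulum, was at −0.15 and −0.22, USP20 and USP33, paralogs that act on receptor recycling, at −0.22 and −0.19 and at −0.34 and −0.23, and USP32 at 0.06 and 0.05. USP6 and USP30, the latter a protease of the mitochondrial surface, were above background on no array.

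Proteases best known from signalling pathways showed 2 of 6 measured members higher in KD1 and none past the fold in KD2, with medians of 0.31 and 0.25. USP24 had 0.92, 1.89 and 1.37, and its changes were 0.98 and 0.45. USP34, which acts on axin in WNT signalling, had 0.79, 1.64 and 1.09, and its changes were 0.85 and 0.30. In both genes KD2 lay between NC and KD1. USP38 had 2.61, 3.18 and 2.51, so that the KD1 array alone was high. USP9X was at −0.09 and 0.20, USP31 at −0.28 and −0.13 and USP35 at 0.05 and 0.47. USP2 was above background on no array.

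Of the members long held to have no protease activity of their own, 3 were measured. USP53, a protein of cell junctions, had 0.76 on NC, 1.62 on KD1 and 1.75 on KD2, from intensities of 197, 471 and 422. It was 1.83-fold higher in KD1 and 1.99-fold higher in KD2, against a spread of 0.41 between KD1 and KD2 in its brightness class. Its second probe, which lay upstream on the same transcript, gave changes of 1.52 and 1.28. USP54, its paralog, went the other way with 3.34, 2.83 and 2.64, and was under the fold in KD1 (−0.52) and lower past it in KD2 (−0.70). USP39, a component of the spliceosome, was the brightest member at 7.63, 7.85 and 7.66. USP50 was above background on no array.

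The paralogs USP4, USP11 and USP15 share a domain arrangement and act in TGF-beta and splicing pathways. None was past the fold at its brightest probe, and the medians were 0.06 and −0.15. USP4 had 4.67, 4.73 and 4.52, and USP15 had 4.17, 4.50 and 4.55. USP18, which removes the ubiquitin-like protein ISG15 and is induced by interferon, had 0.07, 0.21 and −0.24, a change of 0.14 in KD1 and −0.31 in KD2. Of 3 members in none of the groups, USP40 had 0.37, 1.29 and 0.80 and was higher in KD1 (0.91), USP43 had 1.29, 1.45 and 2.09 and was higher in KD2 (0.80), and USP45 had 0.91, 0.21 and 0.40 and was lower in KD1 (−0.70). The 9 members above background on no array were USP2, USP6, USP26, USP29, USP30, USP41, USP44, USP50 and USP51. The nearest to the limit was USP30, at −2.67 on NC, while USP28 and USP14, above background on 1 and 2 arrays, were just inside it.

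The 5 members with the highest signals, for which background matters least, were USP39, USP36, USP10, USP42 and USP4. USP36 alone among them was past the fold, and the changes of the other 4 lay between −0.15 and 0.41.

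KD1 and KD2 were also compared directly, a comparison that does not use the NC array. Of 41 members, 5 (12.2%) differed past 1.5-fold, against 18.7% of all genes tested. In KD1, 2 of them (4.88%) were the higher and 3 (7.32%) the lower, against 9.84% and 8.85% of all genes. USP25 was 0.96 higher in KD1 than in KD2, the largest difference of the family. USP38 was 0.67 higher in KD1, and USP12, USP43 and USP14 were lower in KD1 by 0.84, 0.64 and 0.63 log2 units. PRMT1 was also higher in KD1, at 2.75 against 1.45 in KD2, and with 1 array each no relation between the depth of the knockdown and any member could be tested.

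Several members were measured by more than 1 probe, and these did not always move together. Among the 15 members with 2 or more probes above background on all arrays, the sign of the change differed between probes in 7 in KD1 (46.7%, against 42.3% of 3732 genes) and in 7 in KD2 (46.7%, against 32.9%). Among probes above background on all arrays, only those of USP45 lay past the fold in opposite directions. In KD1 its brightest probe, designed on another transcript of the gene, gave −0.70, and its probe nearest the 3′ end gave 0.93. The mean over its probes was 0.063, so that the lower call for USP45 holds for 1 probe only. USP31 differed as much, with −0.28 in KD1 at its first probe and 1.26 at its last. USP32 had a probe at −0.60 in KD1. Another USP32 probe, not above background on NC, was at 1.06 in KD1, which is a bound. The probes of USP15 gave 0.33 and 1.23 in KD1 and 0.38 and 0.67 in KD2. Those of USP3 gave 0.70 and 1.36 in KD1 and 0.54 and 0.79 in KD2.

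**Figure D3:**
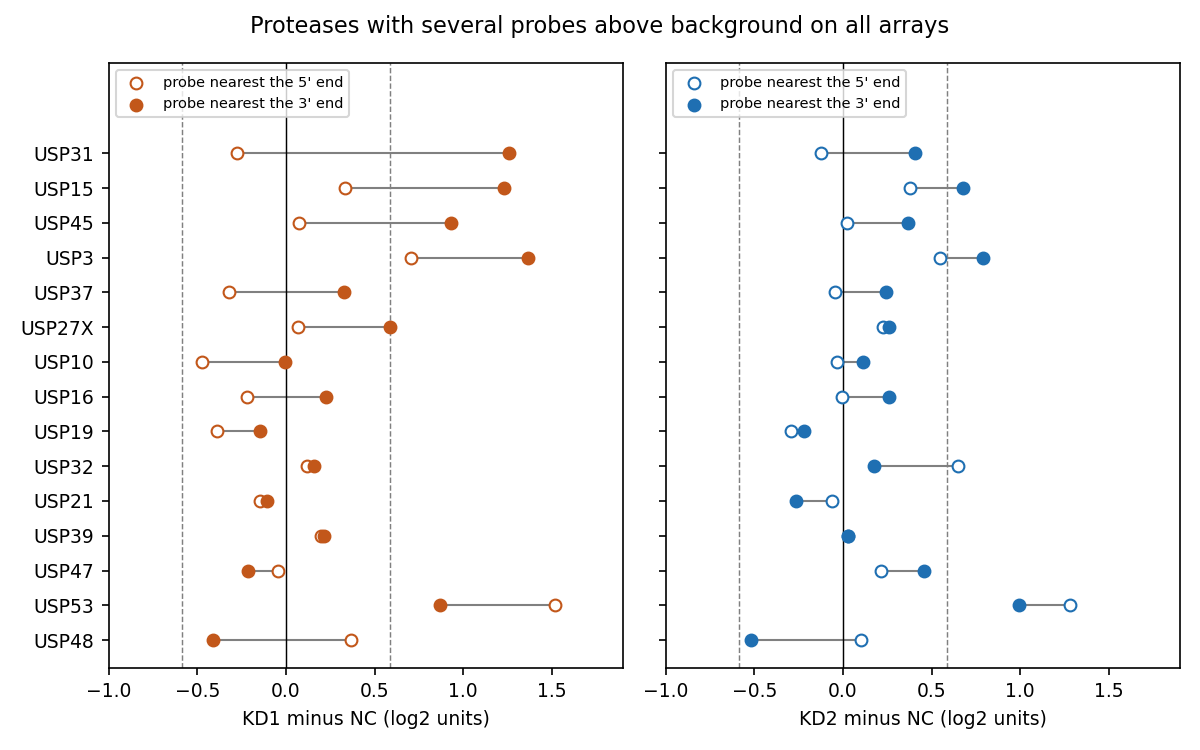
Change in KD1 (left) and KD2 (right), in log2 units, at the probe nearest the 5′ end (open) and nearest the 3′ end (filled) of the 15 members with several probes above background on all arrays; dashed lines mark 1.5-fold. In KD1 the 3′ probe is the higher in 12 of 15 members, and in KD2 in 10.

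The probe nearest the 3′ end had the higher change in 12 of 15 members in KD1 (80.0%, against 61.9% of all genes with several probes) and in 10 in KD2 (66.7%, against 53.6%). The median difference between last and first probe was 0.45 in KD1 and 0.15 in KD2 for the members, and 0.15 and 0.03 for all genes. Probe position also moved with the counts given above. A probe beginning beyond base 3000 of its transcript was used for 24 of 40 members (60%), against 22.9% of all genes. Of all genes with such a probe, 21.3% were higher and 5.51% lower in KD1, and of those with an earlier probe 9.96% and 12.3%. For the members the counts were 7 higher (29.2%) and 1 lower among 24 with a late probe, and 3 higher (18.8%) and 1 lower among 16 with an earlier one. In KD1 the share of higher members was thus above that of all genes for late and for earlier probes, resting on 7 and 3 members. In KD2, late probes were higher in 12.9% and lower in 7.28% of all genes, and in 4 (16.7%) and 3 (12.5%) of the 24 members. Over 17042 genes, which are not independent, Spearman's rho of the KD1 change was 0.28 with probe position and −0.38 with the GC content of the probe. Over the 40 members it was 0.20 and −0.23. The probes of USP25, USP22, USP36 and USP53 all began beyond base 3000. The part of probe position in the members' changes was not tested.

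Other deubiquitinases, from the OTU, UCH, Josephin, JAMM and related families, had a median change of 0.31 in KD1 and 0.10 in KD2. Of the 34 measured among 42 listed, 5 were higher and 1 lower in KD1, and 4 were higher and 2 lower in KD2. These counts were near those of all genes for the higher side, 13.2% in KD1 and 9.56% in KD2, and fewer than the 12.8% lower in KD1. OTUD4, which acts in DNA alkylation repair, had −1.99, −0.56 and −0.83 on NC, KD1 and KD2, and OTUD1 had −1.65, −0.36 and −0.89. CYLD, which belongs to the ubiquitin-specific proteases by sequence but not by name and restrains NF-kappaB, had −0.21, 0.62 and 0.48. These genes and ZUFSP, a protease of lysine 63 chains now named ZUP1, at 0.77 and 0.59, were higher past the fold in both knockdowns. OTUD6A had −0.75, −2.32 and −1.78 and was lower in both, by changes of −1.56 and −1.03. FAM188B was lower in KD2 only (−0.86, against −0.54).

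UBB, a gene of ubiquitin repeats, was at −0.16 in KD1 and 0.07 in KD2. The main activating enzyme UBA1 was at −0.07 and 0.10, and UBA6, another activating enzyme, was above background on KD2 alone. Near-identical copies, such as the genes USP18 and USP41, may hybridise to each other's probes, so their values are uncertain. Among 10 partner proteins of the family, 1 was higher and 1 lower in KD1, and none was past the fold in KD2. These were STAM2 and STAM, which bind USP8 on endosomes, at 1.26 and −0.61 in KD1.

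The genes whose proteins are held to be substrates or partners of USP25 and USP28 had medians of 0.38 in KD1 and 0.42 in KD2, with changes in both directions. Of 14 measured, 5 were higher and 1 lower in KD1, and 5 were higher and none lower in KD2, beside 13.2% higher and 12.8% lower of all genes in KD1 and 9.56% and 10.7% in KD2. TNKS, a tankyrase that USP25 stabilises, had −0.82, 0.18 and −0.22, with changes of 1.01 and 0.60, and TNKS2 had changes of 0.73 and 0.60. TRAF6, an adaptor of immune signalling, had 0.83, 1.71 and 1.68, with changes of 0.88 and 0.86. MYC, a substrate of USP28, had 6.18, 7.08 and 6.92, with changes of 0.90 and 0.74. The list also held TP53BP1, higher in KD1 only (0.79, against 0.41), and JUN, past the fold in KD2 only (0.63, against 0.54). CLSPN, a checkpoint adaptor that USP28 stabilises, was lower in KD1 at −1.29 and at −0.24 in KD2. KDM1A, a histone demethylase, was at −0.40 and −0.36, NOTCH1 at −0.37 and −0.04 and CHEK2, a checkpoint kinase, at −0.19 and −0.18. These are transcript levels, and protein levels were not measured by the arrays.

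USP25 lies in a gene-poor stretch of chromosome 21, and its neighbours are described here. Of 47 named genes with a probe within 2 Mb of the USP25 probe in hg19, 13 were measured. In KD1 1 of them was lower past the fold and 4 were higher, beside 12.8% and 13.2% of all genes. In KD2 none was lower and 2 were higher, beside 10.7% and 9.56%. ABCC13 and LOC388813 could not be compared with NC in KD1, nor XLOC_l2_009136 in KD2, being above background on neither array. ABCC13, higher in KD2 at 0.95, was above background on KD2 alone, so that its change is a bound. The lower gene was CXADR, a junction adhesion receptor, at −0.65 in KD1 and −0.03 in KD2. NRIP1, a nuclear receptor corepressor whose probe lay 915 kb away, was higher in both at 1.10 and 0.88. The nearest measured gene was the noncoding MIR99AHG, whose probe lay 609 kb away, at 1.14 and 0.46. The changes of the measured neighbours ran from −0.65 to 1.14 in KD1 and from −0.46 to 0.95 in KD2.

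**Figure D4:**
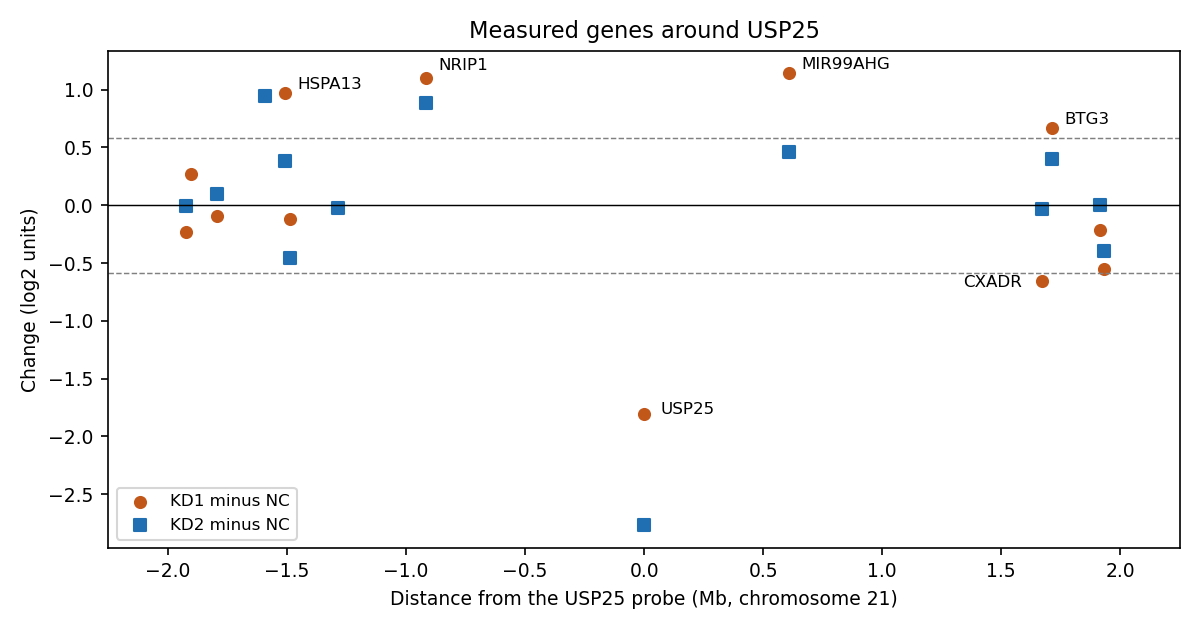
Change in KD1 (circles) and KD2 (squares), in log2 units, of USP25 and of the measured genes within 2 Mb of its probe on chromosome 21, by distance (Mb); dashed lines mark 1.5-fold. Neighbours lie between −0.65 and 1.14 in KD1, with NRIP1 and MIR99AHG above NC, and USP25, plotted at distance 0, was chosen for its low changes.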

How the data were processed

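Total RNA of 3 HCT116 cultures was measured on 1-colour arrays of 60-base probes, 1 array per group, on 1 slide in 1 scan. The authors deposited scanner output of Agilent Feature Extraction 10.7.1.1, and per the file headers each processed intensity was background-corrected but left unscaled. The same intensity per probe, in the deposited series matrix, served as an alternative. Probe positions are those of hg19.

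Control spots and spots marked as outliers were removed, and 130 probes had no usable spot on some array. Repeated spots were averaged as log2 intensity and each array's 75th percentile was subtracted. Names were matched to RefSeq (GRCh38.p14), by symbol for 50 members and by synonym for 1. A gene entered a comparison when above background on either array. On an array where it was not, the higher of its own signal and the dimmest signal called above background was used. Its change is a bound where the dimmest signal was used, and an uncertain value where its own signal was. The threshold of 1.5-fold follows the study's methods. Their p-value needs replicates and was not computed. The calculation was run on 17054 genes above background on all arrays, with 4-fold changes put into 200 of them and noise of SD 0.1. It recovered 200 of the 200. That noise was below the robust SD of 0.38 between KD1 and KD2, and bounds and changes near 1.5-fold were not tested.

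Members and gene lists were chosen with earlier results of these data known. Named genes were PRMT1, USP25, USP28, members past the fold in both knockdowns, the 5 brightest, the 5 differing most between KD1 and KD2, those with contrary probes, and examples of each list. The other members and genes were named after their values were seen. The alternatives were normexp (offset 50), quantile and median scaling, a percentile over probes above background, scaling to 8 spike-in probes, the matrix, stricter and no filters, other probe rules, outlier spots kept, a fold of 2 and the mean for the median. A percentile over probes usable on all arrays was added after the data had been seen. Computation used R 4.3.3 with limma 3.58.1 and Python 3.11.15 with pandas 2.3.3, numpy 2.4.6 and matplotlib 3.10.9. With 1 array per group, precision is limited by the number of arrays. Some listed genes are not reported here.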

Additional observations from a re-analysis of the deposited data

How the results depend on the processing

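No paired analysis was possible because each group had 1 array. USP53 was higher past 1.5-fold in both knockdowns under every alternative that kept this fold. USP25 was lower past it in both as well. It was chosen for its low changes on these same arrays, so no support is drawn from this. The counts of members past the fold moved as follows, the cause not being tested except where the setting itself gives it. Spike-in scaling raised the median of all genes to 0.57 in KD1 and 0.24 in KD2 (48.4% and 22.4% higher, 1.97% and 3.64% lower), and the members then had a median of 0.63 in KD1, with 1 lower and 23 higher in KD1, 1 lower and 13 higher in KD2, and 12 higher in both, and USP25 at −1.20 in KD1. In the unscaled matrix the median of all genes was 0.35 in KD1 (32.5% higher, 3.58% lower) and that of the members 0.41, with 1 lower in KD1, 5 higher in both, and USP25 at −1.42 in KD1. Median scaling put all genes at −0.20 in KD2 (6.05% higher, 18.1% lower) and left 3 members higher in KD2, 2 lower in both and 1 higher in both, USP22 and USP36 having dropped out at 0.57 and 0.55 in KD2. Normexp gave 1 member lower in KD1, 3 lower in KD2, and USP25 at −1.02 and −1.19. Members lower in both numbered 3 with quantile normalization and with the percentile taken over probes that all arrays had above background (which gave 5 lower in KD1), and 2 with no filter and no floor (also 5 lower in KD1), with outlier spots kept, and with the added percentile over probes usable on all arrays. A fold of 2, by its construction stricter, left 1 lower and 1 higher in KD1, 1 lower and 0 higher in KD2, and 0 higher in both. Each probe on its own, by its construction more features, gave 16 higher in KD1, 11 in KD2 and 7 in both. The mean over probes turned USP45 in KD1 from −0.70 to 0.063. Of 899 other values of single members, 806 moved by less than the spread between KD1 and KD2 and 92 by more. Part of the 806 could not move. The filter settings leave members above background on all arrays as they were, and the mean over probes leaves members with 1 probe. The count is therefore no measure of robustness.

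Dim probes limit the values most. USP25 on KD2, USP28, USP14 and USP46 lay near the background, where correction decides the size of a change. No array was repeated, so variation between cultures is unknown.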
